A study of Mus musculus with 32 samples.

Results

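Marco, Pparg, Fabp1, Krt79, Mrc1, Atp6v0d2, Ear2 and Itgax are 8 genes whose transcripts mark alveolar macrophages, the resident phagocytes of the lung's airspaces. They were taken by gene symbol from the deposited expression tables, in which each symbol had 1 row: 8 genes of 35275 in the count table. Poly(A) RNA of whole lung from C57B/6 mice was sequenced in 32 libraries in 2 experiments. In the first, mice without surgery breathed room air (3 female and 3 male libraries) or cigarette smoke (5 female and 5 male libraries) for 5 months, and these groups are called female air, male air, female smoke and male smoke. In the second, females alone were used and every group received smoke: after a sham operation or removal of the ovaries (ovariectomy), the exposure lasted 3 months (3 libraries of sham, 3 of ovariectomy) or 5 months (5 libraries of sham, 5 of ovariectomy). The second experiment therefore holds no air group, the ages of the mice are not in the labels, and the labels do not say that the libraries of a group came from separate animals, so each p-value measures only the spread between libraries, which may be technical.

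Alveolar macrophages settle in the airspaces around birth and renew themselves there. Their identity depends on GM-CSF from alveolar epithelium, which induces PPARγ, the lipid-sensing nuclear receptor encoded by Pparg, and on TGF-β. Mature cells clear inhaled particles through surface receptors such as MARCO and the mannose receptor, break down surfactant lipid in acid lysosomes, and carry CD11c, the integrin chain encoded by Itgax, at a level more usual for dendritic cells. In cigarette smoke these cells are known to fill with lipid and particles, and monocytes recruited from blood can join them.

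Of the 8 transcripts, Ear2 is the one for which a short read most often fits another gene, so its sequence is shown beside its nearest abundant relative. Ear2 encodes a secreted ribonuclease of the eosinophil-associated family, whose name comes from granulocytes although the lung transcript is a macrophage marker. The longest reading frames of Ear2 and Ear1 in GENCODE M21 (GRCm38) matched at 448 of 471 aligned bases (95.1%). Ear10 was nearer to Ear2, at 457 of 471 bases (97%), but its median was below 0.1 CPM. A stretch of 90 bases, chosen for the most differences between Ear2 and Ear1, runs from coding base 81 to coding base 170. It is printed 5′ to 3′, with the 8 bases at which these 2 genes differ in capitals.
Ear2: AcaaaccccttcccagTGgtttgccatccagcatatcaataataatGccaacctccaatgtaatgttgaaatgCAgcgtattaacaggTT
Ear1: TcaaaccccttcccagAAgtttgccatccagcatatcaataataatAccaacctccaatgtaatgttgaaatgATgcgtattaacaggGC
Even here long runs were shared, and over the whole pair the longest identical run was 96 bases. Of the 670 different runs of 50 bases in Ear2 transcripts, 278 (41.5%) also occurred in Ear1, Ear10, Ear6, Ear-ps2 or Ear-ps9. In Itgax 384 of 4790 such runs (8.02%) occurred in Itgad, the neighbouring integrin gene, and the other 6 genes shared none. How reads that fit more than 1 gene were counted is not given in the sources used here, so levels of Ear2, and to a lesser degree of Itgax, are uncertain by the reads their relatives could lend or take.

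The promoter of Fabp1 is shown because Fabp1 alone of the 8 passed edgeR's test in any comparison. It encodes a cytosolic carrier of fatty acids that is abundant in liver and gut and is also made by alveolar macrophages, and it is a textbook target of PPAR receptors. That promoter in RefSeq (GRCm38.p6, plus strand, chr6:71199629-71199928, from 250 bases before the start site to 50 after it) is printed with each copy of AGGTCA, the core of PPAR binding sites, in capitals, both lying on the minus strand and so read as TGACCT.
Fabp1 promoter: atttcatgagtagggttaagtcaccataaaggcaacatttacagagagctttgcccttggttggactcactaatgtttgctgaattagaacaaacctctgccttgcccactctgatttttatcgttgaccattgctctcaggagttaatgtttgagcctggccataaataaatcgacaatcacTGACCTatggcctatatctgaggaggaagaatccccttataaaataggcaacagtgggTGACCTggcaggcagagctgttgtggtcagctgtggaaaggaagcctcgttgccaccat
The copies begin 67 and 9 bases before the start site. AGGTCA, searched on both strands, occurred in 5340 of 32851 promoters of this length (16.3%). The exact form of the usual PPAR site, 2 copies in the same direction with any 1 base between them, occurred in 13 (0.0396%). RefSeq promoters were matched for 7 of the 8 genes, Atp6v0d2 having no match. Beyond Fabp1, AGGTCA was present in 2 of the Pparg promoters, with 1 copy each, and not in those of Marco, Krt79, Mrc1, Ear2 or Itgax. That repeat and GAGGAAGT, a form of the site of the myeloid factor PU.1 held by 3.2% of all promoters, were in none of the windows of these genes. These are matches of letters, not bound sites.

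Depth ran from 13790052 to 24497332 counts per library, with a median of 17.1 M (megacounts), and the 8 genes had between 27 and 1920 counts in every library, so all of them passed the filter on low counts in both experiments. Surfactant gene Sftpc lay at 19666.2 to 32987.1 CPM, counts scaled to a common library size, in every library of this lung tissue, and the macrophage markers Chil3 and Siglecf at 261.1 to 1669.2 and 7.27 to 17.0 CPM. No 2 libraries of a group were near copies. Some libraries stood apart. More than 100 CPM of the liver gene Alb was present in 7 libraries, of which 1 was male air, 1 female air, 2 ovariectomy at 3 months, 1 ovariectomy at 5 months and 2 sham at 5 months. The third sham library at 5 months held the highest levels of Atp6v0d2, Mrc1 and Itgax of all 32, and the second female smoke library the highest of Krt79 and Ear2. Since whole lung was sequenced, fewer cells of a type and less RNA per cell cannot be told apart in any value that follows.

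Per unit length Ear2 was the most abundant of the 8 transcripts and Pparg the least. In TPM, which divides counts by gene length, the means over all 32 libraries were 189.3 ± 35.5 (SD) for Ear2, 29.2 ± 30.6 for Fabp1, 28.7 ± 7.86 for Atp6v0d2, 26.3 ± 4.18 for Mrc1, 25.2 ± 5.75 for Itgax, 21.9 ± 7.06 for Krt79, 17.9 ± 8.86 for Marco and 12.04 ± 2.58 for Pparg. The mean of Fabp1 was drawn up by a few libraries, its median being 18.5 TPM. Summed over the 8 genes, CPM ran from 207.7 to 382.3, and the ranges of the groups overlapped: 231.4 to 308.7 in female air, 241.3 to 382.3 in female smoke, 217.1 to 260.6 in male air and 207.7 to 323.5 in male smoke. Single members differed widely in how steady they were. The highest library exceeded the lowest 20.6-fold for Fabp1, 7.31-fold for Marco and 4.5-fold for Krt79, but only 1.74-fold for Mrc1, 1.97-fold for Itgax and 2.17-fold for Ear2.

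**Figure D1:**
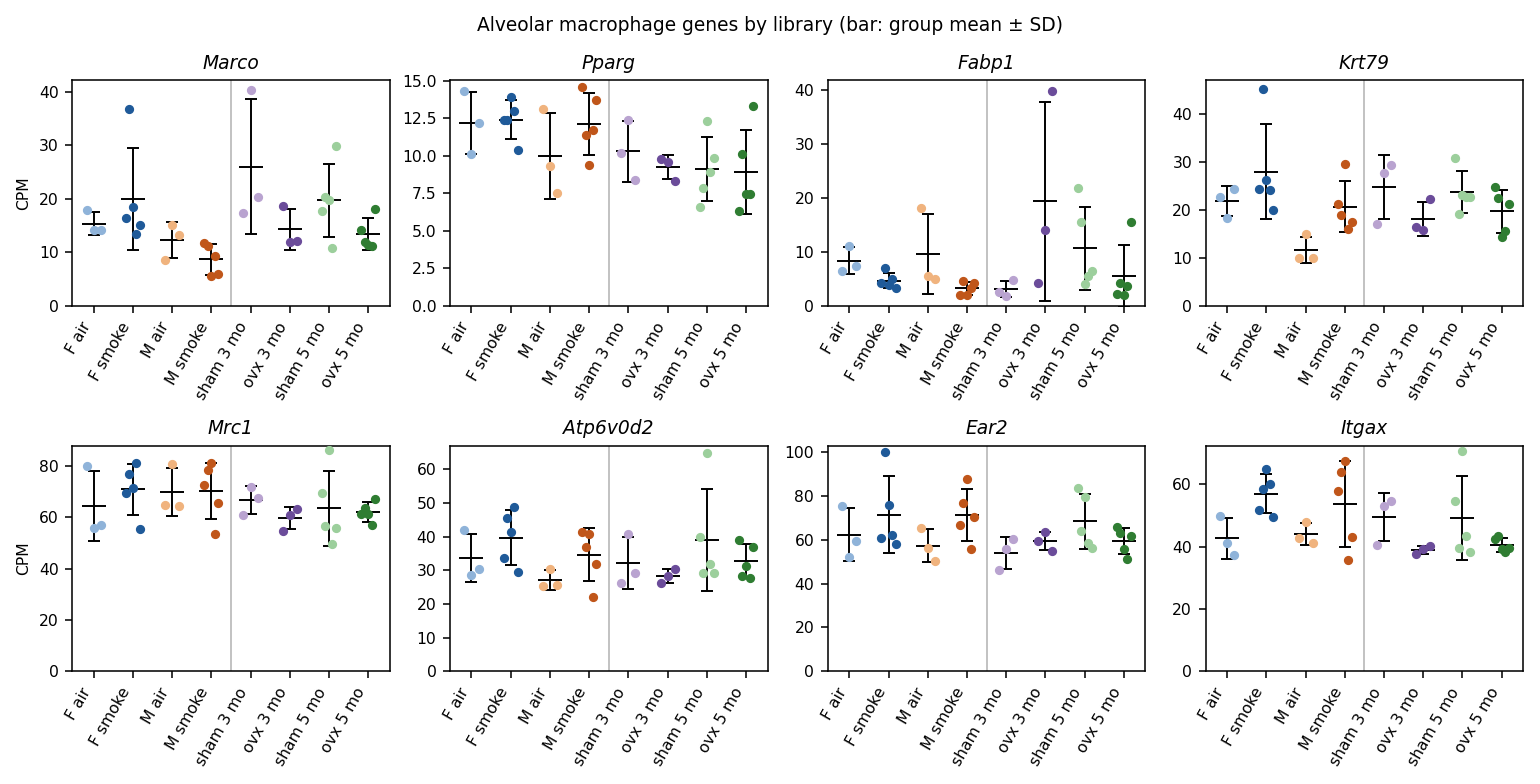
CPM of each of the 8 genes in every library (points) by group, with bars for the mean ± SD, in 8 panels with a linear axis each. As a ratio of highest to lowest, Mrc1 has the narrowest range of group means, 59.7 to 70.9 CPM or 1.19-fold. Fabp1 reaches 39.8 CPM in 1 ovariectomized library, and Marco is lowest in male smoke at 5.53 to 11.8 CPM.

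MARCO is a class A scavenger receptor that binds unopsonized particles and bacteria. As a ratio of highest to lowest, its transcript (chromosome 1, 120474538 to 120505024, minus strand) had the widest spread between group means after Fabp1, 2.97-fold. From lowest to highest, the group means in CPM were 8.76 ± 2.91 in male smoke (n = 5), 12.4 ± 3.36 in male air (n = 3), 13.4 ± 2.94 in ovariectomy at 5 months (n = 5), 14.3 ± 3.80 in ovariectomy at 3 months (n = 3), 15.4 ± 2.16 in female air (n = 3), 19.7 ± 6.80 in sham at 5 months (n = 5), 20.05 ± 9.51 in female smoke (n = 5) and 26.02 ± 12.6 in sham at 3 months (n = 3). Each neighbouring pair in this order overlapped. The means of both male groups and both ovariectomized groups were below those of all the groups of females that kept their ovaries, across the 2 experiments. This grouping was read from the order of the means, joins 2 separate experiments and was not tested. The share of all genes with such an order was not counted. By contrast Mrc1, the mannose receptor gene (chromosome 2, 14229414 to 14332057, plus strand), was the flattest of the 8: its group means ran from 59.7 ± 4.39 CPM in ovariectomy at 3 months to 70.9 ± 9.80 CPM in female smoke, a 1.19-fold span, and all 7 neighbouring pairs overlapped.

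Pparg, the regulator of the set (chromosome 6, 115361221 to 115490401, plus strand), lay between 8.91 ± 2.80 CPM in ovariectomy at 5 months and 12.4 ± 1.28 CPM in female smoke. The 4 groups of the second experiment included the lowest 3 means, and neighbours overlapped throughout the order. Markers of adipocytes, 9 genes, summed to 164.6 to 540.1 CPM over all libraries. In smoke against air 7 of 9 had positive log2 fold changes in females, with 0 called. In males 8 of 9 were positive and 2 were called higher, where 10.3% of all genes were called in either direction. Their part in the Pparg values was not tested.

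Of the genes of lipid and lysosome function, Atp6v0d2 encodes a membrane-sector subunit of the proton pump (V-ATPase) that acidifies lysosomes, in the form favoured by macrophages and osteoclasts. It (chromosome 4, 19876841 to 19922605, minus strand) had group means from 27.0 ± 2.90 CPM in male air to 39.7 ± 8.10 CPM in female smoke, with overlap between all neighbours. Its broadly expressed counterpart Atp6v0d1 was more abundant, with a median of 129.8 TPM against 26.1 TPM for Atp6v0d2. Fabp1 (chromosome 6, 71199827 to 71205023, plus strand) varied most, from 3.09 ± 1.51 CPM in sham at 3 months to 19.4 ± 18.4 CPM in ovariectomy at the same time. In that highest group the libraries were at 4.28, 14.05 and 39.8 CPM, so the SD nearly equals the mean.

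Krt79, a keratin that is unusual in marking a macrophage (chromosome 15, 101929332 to 101940324, minus strand), ranged from 11.7 ± 2.77 CPM in male air to 27.99 ± 9.88 CPM in female smoke. Male air stood below the next group, ovariectomy at 3 months, with no overlap, and the other 6 neighbouring pairs overlapped. That pair joins separate experiments, differs in sex, exposure, surgery and duration, and was not tested. The share of all genes without overlap in it was not counted. Groups of the same sizes did not overlap for 16.7% of all genes between males and females in air. Between ovariectomy and sham at 3 months the share was 15.3%. Markers of keratinocytes and basal epithelium, 9 genes, summed to 4.57 to 22.4 CPM over all libraries, 11.3 to 19.8 in male air and 5.21 to 15.9 in male smoke, and Dsg3 was at 0 in the median library; their part in the Krt79 values was not tested. Ear2 (chromosome 14, 44102654 to 44103534, plus strand) ran from 54.1 ± 7.25 CPM in sham at 3 months to 71.4 ± 17.5 CPM in female smoke. Of 7 eosinophil genes, Epx and Prg3 had medians below 0.1 CPM and Prg2, Il5ra and Ccr3 had medians of 0.531, 0.63 and 0.202 CPM, while Siglecf and Alox15, which macrophages can also express, had 11.6 and 28.2 CPM. The list summed to 21.5 to 31.1 CPM in female air, 35.1 to 43.6 in female smoke, 19.1 to 35.5 in male air, 28.3 to 63.4 in male smoke and 39.5 to 108.3 in the second experiment. The 3 of its genes that were tested had positive log2 fold changes in smoke in both sexes, with medians of 0.74 and 0.62 and 0 called, and their part in the Ear2 values was not tested. Itgax (chromosome 7, 128129547 to 128150656, plus strand) ran from 39.0 ± 1.29 CPM in ovariectomy at 3 months to 57.0 ± 6.30 CPM in female smoke, with overlapping neighbours. Female smoke thus had the highest mean for 6 of the 8 genes, Marco and Fabp1 being the exceptions.

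What 5 months of smoke did to these markers in females was asked by setting 5 smoke against 3 air libraries. No member passed the test, and Itgax, higher in smoke, and Fabp1, lower, came closest. Itgax was at 49.9, 41.1 and 37.2 CPM in air and at 51.9, 58.4, 65.1, 60.1 and 49.5 CPM in smoke. The groups met at 1 point, where the highest air library exceeded the lowest smoke library. The log2 fold change was 0.42 (SE 0.179, 95% interval 0.04 to 0.80), with an adjusted p of 0.185 in edgeR's quasi-likelihood test with Benjamini-Hochberg adjustment over all genes. Dendritic cells also carry Itgax, and none of 12 dendritic cell markers had a positive log2 fold change here, with 3 falling (Flt3, Mgl2 and Ccl22) and summed levels of 188.8 to 214.1 CPM in air and 144.3 to 170.0 CPM in smoke; their part in the Itgax value was not tested.

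Fabp1 was at 6.53, 11.2 and 7.39 CPM in female air and at 4.34, 7.04, 3.85, 4.95 and 3.42 CPM in female smoke. All but 1 of the smoke libraries lay below every air library. Its log2 fold change was -0.82 (SE 0.393, interval -1.65 to 0.01, adjusted p = 0.244 in the same edgeR test). It ran from -1.01 to -0.56 when each library was left out. The air library at 11.2 CPM also held 145.1 CPM of Alb. Of 12 liver genes 1 had a positive log2 fold change here and 0 were called, with a median of -3.4. Their sums were 27.5 to 243.2 CPM in air and 13.5 to 28.6 CPM in smoke. The part of liver transcripts in the female Fabp1 value was not tested. Marco was at 17.9, 14.1 and 14.2 CPM in air and at 16.5, 36.7, 18.4, 13.5 and 15.1 CPM in smoke, a log2 fold change of 0.39 (SE 0.335), which became 0.04 without the smoke library at 36.7 CPM. Across the set edgeR called 0 of 8 genes in females, where it called 7.7% of all genes tested; 1 gene had an unadjusted p under 0.05, and DESeq2 also called 0. The log2 fold changes were positive for 7 of 8, with a median of 0.22 against -0.01 over all genes, and medians of 0.08 (without smoke library 2) to 0.38 (without air library 1) when each library was left out. Red cell transcripts differed strongly between these same libraries, the 8 erythroid genes summing to 2268.3 to 3219.6 CPM in air and 6244.1 to 14757.4 CPM in smoke. Mitochondrial and nuclear transcripts used as signs of RNA quality were also higher, 9 of 10 being positive and 3 called, with sums of 17066.8 to 19122.9 CPM in air and 20512.1 to 26062.8 CPM in smoke. Of 10 neutrophil genes 9 were tested, all were positive and 2 were called (S100a8 and S100a9), with sums of 41.8 to 60.7 CPM in air and 67.6 to 116.8 CPM in smoke and Ly6g below 0.1 CPM in the median library. The part of these lists in the member values was not tested.

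In males, 5 smoke libraries were set against 3 air libraries, and Fabp1 fell 2.90-fold while Krt79 was 1.80-fold higher without passing the test. Fabp1 was at 18.1, 5.64 and 4.99 CPM in male air and at 2.01, 4.57, 2.1, 3.39 and 4.2 CPM in male smoke. Every smoke library lay below every air library, but 1 air library stood far above the other 2. The log2 fold change was -1.54 (SE 0.396, interval -2.38 to -0.70, adjusted p = 0.0207 in edgeR's quasi-likelihood test). Without that first air library it was -0.71 with an adjusted p of 0.208, and the call ended.

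That air library also held 262.3 CPM of Alb, and liver genes moved with Fabp1. In male smoke 10 of 12 liver genes fell, with a median log2 fold change of -6.58, and their summed level was 22.3 to 545.0 CPM in air and 15.8 to 26.5 CPM in smoke; Apoc3, Fgb and Serpina1a were below 0.1 CPM in the median library. Gut epithelial markers, the other known site of Fabp1, summed to 5.04 to 6.57 CPM in male air and 2.9 to 7.26 CPM in male smoke, with Fabp2, Cdx2, Apoa4, Sis and Tff3 below 0.1 CPM in the median library. Over the whole series the 7 libraries above 100 CPM of Alb had Fabp1 at 11.2 to 39.8 CPM (median 15.6), and the 25 others had 1.93 to 7.39 CPM (median 4.28), with no overlap. The limit of 100 CPM was chosen after the data were seen, and Alb itself ran without a wide gap across it, from 51.2 to 145.1 and 262.3 CPM, so these are 2 sets made by that limit. Relations were computed within each set, with libraries permuted across groups and group means not removed. Differences between groups and experiments therefore enter r, rho and their permutation p-values. Within the 7, Pearson's r of log2 CPM was 0.64 (exact permutation p = 0.0837, two-sided) and Spearman's rho 0.71 (p = 0.0881, exact permutation), but r was -0.19 without the 2 libraries farthest from the median Alb level. Within the 25, r was 0.43 (permutation p = 0.0248, adjusted 0.0496 over the 2 sets) and rho 0.45 (permutation p = 0.0276, adjusted 0.0552), and r was 0.32 without 2 libraries. Among the male libraries only the first air library was above 100 CPM of Alb. Leaving out all libraries above that limit therefore repeated its omission in males and is no separate result. The male log2 fold change was then -0.71 (adjusted p = 0.20, edgeR's quasi-likelihood test).

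**Figure D2:**
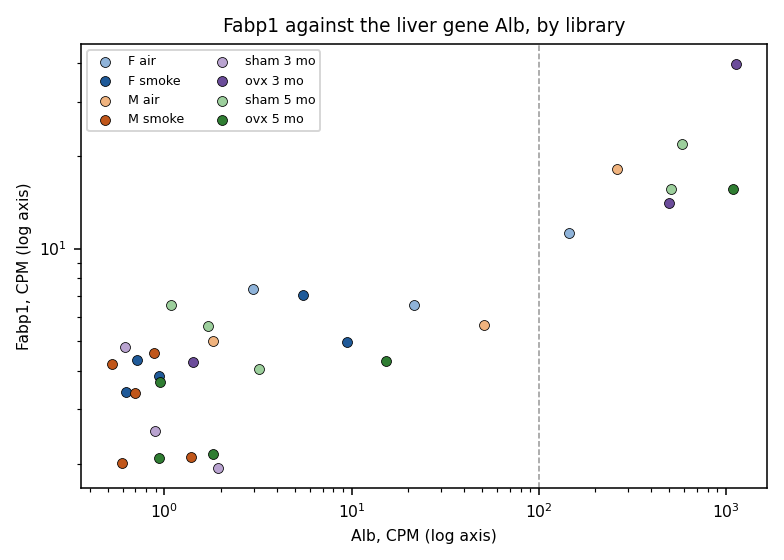
Fabp1 against Alb, both in CPM on log axes, 1 point per library coloured by group, with a dashed line at 100 CPM of Alb. The 7 libraries right of the line hold 11.2 to 39.8 CPM of Fabp1 and the 25 left of it hold 1.93 to 7.39 CPM.

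Krt79 in males was at 10.1, 14.9 and 10.04 CPM in air and at 21.2, 18.9, 29.6, 16.04 and 17.5 CPM in smoke. The groups did not overlap, as for 16.9% of all genes in this comparison. Its log2 fold change was 0.84 (SE 0.269, interval 0.27 to 1.42), and at an adjusted p of 0.0606 it missed the threshold in edgeR's quasi-likelihood test, whereas DESeq2 called it (adjusted p = 0.00585). EdgeR also called it without male smoke library 4 (adjusted p = 0.0448) and with all 32 libraries in 1 fit (adjusted p = 0.0398). The share of all genes that DESeq2 called was not counted. Marco was at 8.66, 15.2 and 13.3 CPM in air and at 11.8, 11.2, 5.53, 9.26 and 5.97 CPM in smoke, a log2 fold change of -0.48 (SE 0.339, adjusted p = 0.446, edgeR). Its sign was thus opposite to that in females, with overlapping groups in both sexes. Itgax, at 42.9, 48.0 and 41.1 CPM in air and 57.8, 64.1, 67.5, 35.9 and 43.2 CPM in smoke, had 0.31 (SE 0.179, adjusted p = 0.33, edgeR), with smoke libraries both above and below all air libraries. Of the 12 dendritic cell markers 3 had positive log2 fold changes in males, and 2 were called lower and 0 higher. These markers summed to 183.1 to 229.1 CPM in male air and 150.2 to 169.9 CPM in male smoke. Their part in the male Itgax value was not tested. In all, edgeR called 1 of 8 genes in males, lower in smoke, where it called 10.3% of all genes in either direction and 5.33% lower. The median log2 fold change of the 8 was 0.30, against 0.01 for all genes, and 0.18 (without air library 3) to 0.36 (without smoke library 4) when each library was left out. RNA quality transcripts were positive in 10 of 10 with 4 called, at sums of 16465.8 to 22027.9 CPM in air and 20073.6 to 26173.0 CPM in smoke. Neutrophil genes were positive in 9 of 9 tested with 3 called, at sums of 46.7 to 61.7 CPM in air and 83.5 to 124.8 CPM in smoke. Their part in the male values was not tested.

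**Figure D3:**
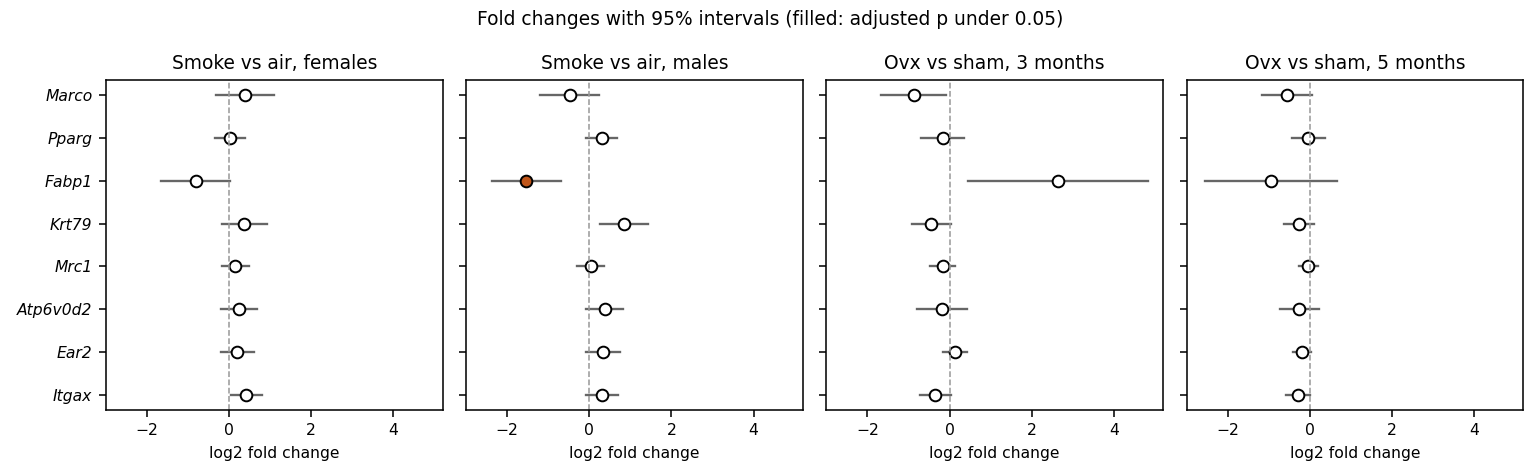
Log2 fold changes of the 8 genes with 95% intervals for smoke against air in females and males and ovariectomy against sham at 3 and 5 months, with filled points for an adjusted p under 0.05. The only filled point is Fabp1 in males at -1.54, and Fabp1 in ovariectomy at 3 months has the widest interval, 0.46 to 4.84.

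Beside the members, genes around them were counted from lists of known function. Of 18 other alveolar macrophage genes, edgeR called 0 higher and 1 lower in females (Slc7a2, an arginine carrier, 1.40-fold, from 65.3 ± 3.73 to 46.7 ± 7.82 CPM) and 0 in either direction in males; 14 of 18 had positive log2 fold changes in each sex, with medians of 0.27 and 0.12. Ear1, the near twin of Ear2, rose in both sexes: from 15.1 ± 2.18 to 27.0 ± 7.85 CPM in females (1.80-fold, adjusted p = 0.011, edgeR) and from 18.04 ± 2.70 to 28.6 ± 4.04 CPM in males (1.61-fold, adjusted p = 0.0283, edgeR). Over the same libraries Ear2 itself had log2 fold changes of 0.20 (interval -0.21 to 0.61) and 0.34 (interval -0.08 to 0.75) and was not called. Whether the change of Ear1 differs from that of Ear2 was not tested, nor was the part of the sequence they share.

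Several genes for the signals that maintain these cells passed the test. Of 16 genes of GM-CSF, TGF-β and CSF1 signalling, 2 rose and 2 fell in females, where 7.7% of all genes were called, and 2 rose and 5 fell in males, where 10.3% of all genes were called. Itgb6, a chain of the integrin that activates TGF-β on epithelium, was among the risers in both sexes, by 1.71-fold in females and by 1.58-fold in males. Bhlhe40, a repressor that supports macrophage self-renewal, fell 1.90-fold and 1.61-fold, and Il34, a CSF1 receptor ligand, fell 1.47-fold and 1.64-fold. In females Csf1, the main ligand of that receptor, rose 1.32-fold. In males the receptor gene Csf1r rose 1.31-fold, while Cebpb, Klf4 and Tgfb1 fell 1.40-fold, 1.52-fold and 1.33-fold. Csf2, which encodes GM-CSF, was near the floor with a median of 0.677 CPM.

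Of 15 PPARγ targets and lipid genes, 2 rose and 2 fell in females and 1 rose and 3 fell in males, beside the same shares of all genes. The cholesterol exporter Abca1 was a riser in both sexes, by 1.22-fold in females and by 1.2-fold in males, and lysosomal lipase Lipa, named after its value was seen, was the other riser in females at 1.23-fold. Scarb1, a receptor for high-density lipoprotein, fell 1.47-fold and 1.90-fold, Pltp, a phospholipid transfer protein, fell 1.46-fold and 1.58-fold, and in males the mitochondrial gate Cpt1a fell 1.49-fold. Fabp4 and Fabp5, the relatives of Fabp1 most abundant in these libraries, were not called in either sex. Of 16 V-ATPase subunits 0 were called in females and 1 in males (Atp6v0e, 1.25-fold higher). Of 14 scavenger and mannose receptors, the list that contains Marco and Mrc1, 2 fell in females and 5 in males, led by Scarb1 in males, and 0 rose. In the list of 12 recruited or lipid-laden macrophage genes Spp1, encoding osteopontin, rose 2.18-fold in males, and 0 were called in females. Another list held 12 interstitial macrophage genes, which mark the tissue-bound macrophages that share Mrc1. Of these 0 were called in females, and 1 rose and 2 fell in males. Positive log2 fold changes numbered 4 in females and 6 in males, with medians of -0.26 and 0.001. The list summed to 527.1 to 764.8 CPM in female air and 396.9 to 502.7 in female smoke. In males it summed to 551.6 to 949.1 CPM in air and 408.6 to 520.7 in smoke. Its part in the Mrc1 values was not tested.

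Sex was compared within air and within smoke. Marco was lower in male smoke than in female smoke in every library, at 5.53 to 11.8 CPM against 13.5 to 36.7 CPM, and Krt79 was lower in male air than in female air in every library, at 10.04 to 14.9 against 18.3 to 24.3 CPM. Groups that do not overlap were found for 1.63% of all genes in smoke and for 16.7% in air. For Marco in smoke the log2 fold change of males against females was -1.20 (SE 0.296, interval -1.83 to -0.56), 0.436 times the female level, with an unadjusted p of 0.00119 and an adjusted p of 0.253 in edgeR's quasi-likelihood test. In air it was -0.33 (SE 0.375, adjusted p = 0.838, edgeR), with overlap. For Krt79 the values were -0.91 in air (SE 0.293, interval -1.54 to -0.29, adjusted p = 0.309, edgeR) and -0.44 in smoke (SE 0.221, adjusted p = 0.685, edgeR), where the groups overlapped.

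With edgeR 0 of 8 members were called in air, where 0.177% of all genes were, and 0 of 8 in smoke, where 0.189% were; 1 member had an unadjusted p under 0.05 in each. DESeq2 called 0 in air and 1 in smoke, Marco, with an adjusted p of 0.00122. The share of all genes that DESeq2 called was not counted, and edgeR's shares do not serve for its calls, here or in the average below. Averaged over air and smoke, a comparison added after the data were seen, Marco had a log2 fold change of -0.77 and Krt79 of -0.67 (adjusted p = 0.23 and 0.148, edgeR). There edgeR called 0 of 8 members against 0.33% of all genes, with 2 at an unadjusted p under 0.05, and DESeq2 called those 2 (adjusted p = 0.0245 for Marco and 0.00859 for Krt79). In the same average Msr1, another class A scavenger receptor gene, was higher in males, 1.73-fold (adjusted p = 0.0426, edgeR), its means being 3.0 ± 0.643 and 4.64 ± 0.399 CPM in female air and smoke and 6.51 ± 1.92 and 6.48 ± 1.73 CPM in male air and smoke. These 2 receptors of 1 class thus had opposite signs between the sexes, with no call by edgeR for Marco.

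Whether smoke acted differently in males and females was tested with the interaction of sex and smoke. For Marco the difference of log2 fold changes, males minus females, was -0.87 (SE 0.477, unadjusted p = 0.0902, adjusted p = 0.871, edgeR), and for Krt79 it was 0.47 (SE 0.366, adjusted p = 0.917, edgeR). Of the 8 members edgeR called 0, against 0.00611% of all genes, with 0 at an unadjusted p under 0.05, and DESeq2 called 0 with 1 at an unadjusted p under 0.05.

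Removal of the ovaries was compared with sham surgery in females that all received smoke. At 3 months Marco was at 17.4, 40.4 and 20.3 CPM in sham and at 18.7, 11.99 and 12.2 CPM after ovariectomy. All but 1 of the ovariectomized libraries lay below every sham library. Its log2 fold change was -0.87 (SE 0.367, interval -1.66 to -0.08, adjusted p = 0.495, edgeR's quasi-likelihood test), and -0.40 at the smallest when 1 library was left out. Itgax was at 40.7, 53.2 and 54.6 CPM in sham and at 37.6, 39.3 and 40.1 CPM after ovariectomy, which did not overlap, as for 15.3% of all genes. Its log2 fold change was -0.35 (SE 0.179, adjusted p = 0.567, edgeR). Fabp1 was at 2.55, 1.93 and 4.8 CPM in sham and 4.28, 14.05 and 39.8 CPM after ovariectomy, a log2 fold change of 2.65 (SE 1.01, interval 0.46 to 4.84, adjusted p = 0.455, edgeR). The 2 highest of these libraries held 498.8 and 1134.4 CPM of Alb, and without libraries above 100 CPM of Alb, which leaves 1 ovariectomized library, assumed to vary like the other groups, the value was 0.47. EdgeR called 0 of 8 members and 0% of all genes in this comparison, with 2 members at an unadjusted p under 0.05, and DESeq2 called 0.

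At 5 months all 8 members had negative log2 fold changes, with a median of -0.26 against -0.01 over all genes, and 0 were called by edgeR, where 1.36% of all genes were. The shared sign rested in part on the third sham library: without it 5 of 8 were negative, the median was -0.12, and Pparg, Mrc1 and Atp6v0d2 had values of 0.10, 0.11 and 0.01. None had an unadjusted p under 0.05 in edgeR, and DESeq2 called 0 with 1 at an unadjusted p under 0.05. Marco was at 17.7, 20.4, 19.7, 10.9 and 29.9 CPM in sham and at 14.2, 11.9, 11.4, 11.2 and 18.2 CPM after ovariectomy. The lowest library of all was a sham library, so the groups overlapped. Its log2 fold change was -0.56 (SE 0.284, interval -1.17 to 0.05, adjusted p = 0.372, edgeR). Itgax, at 54.6, 39.6, 70.7, 43.3 and 38.3 CPM in sham and 42.5, 43.6, 39.3, 38.2 and 39.5 CPM after ovariectomy, had -0.28 (SE 0.138, adjusted p = 0.344, edgeR), or -0.11 without sham library 3. Here too the lower sham libraries lay within the ovariectomized range. Fabp1 had -0.95 (SE 0.739, adjusted p = 0.598, edgeR), the opposite sign to that at 3 months. It was at 21.8, 15.6, 4.07, 5.58 and 6.55 CPM in sham and 2.14, 4.32, 2.08, 3.67 and 15.6 CPM after ovariectomy, and the 3 libraries at 15.6 CPM or more were those with over 100 CPM of Alb. Csf2ra, the GM-CSF receptor alpha chain, fell 1.42-fold after ovariectomy at 5 months, from 42.8 ± 6.24 to 30.2 ± 3.41 CPM (adjusted p = 0.0145, edgeR), the 1 call among the 16 signalling genes, and of the 18 other alveolar macrophage genes 0 were called at either time. Of the 12 interstitial macrophage genes, 11 had positive log2 fold changes at 3 months and 11 at 5 months, with medians of 0.30 and 0.17 and 0 called.

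Between 3 and 5 months of smoke, averaged over sham and ovariectomy, no member passed the test. EdgeR called 0 of 8 against 0.13% of all genes, with 0 at an unadjusted p under 0.05, and DESeq2 called 0. Ear2 came closest: it was at 46.2, 55.6 and 60.5 CPM in sham and 59.6, 63.3 and 55.0 CPM in ovariectomy at 3 months, and at 56.0 to 83.6 and 51.0 to 66.0 CPM at 5 months, with a log2 fold change of 0.17 (SE 0.087, adjusted p = 0.419, edgeR). In the interaction of surgery and time edgeR called 0 of 8 members and 0% of all genes, with 1 at an unadjusted p under 0.05, and DESeq2 called 0. That 1 was Fabp1, with a difference of log2 fold changes of -3.60 (SE 1.24, unadjusted p = 0.0133, adjusted p = 0.938, edgeR), which was -1.30 without the libraries above 100 CPM of Alb. That leaves 1 ovariectomized library at 3 months, assumed to vary like the other groups.

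Within groups, 5 of the 8 genes varied together from library to library. For the 28 pairs of members, log2 CPM was centred in each of the 8 groups and correlated over the 32 libraries, with 100000 permutations within groups and Benjamini-Hochberg adjustment over the pairs. The 10 pairs among Krt79, Mrc1, Atp6v0d2, Ear2 and Itgax all passed, and no pair with Marco, Pparg or Fabp1 did. Mrc1 and Atp6v0d2 were closest (r = 0.89, rho = 0.88, and r = 0.88 without the 2 libraries farthest from the median), followed by Mrc1 and Itgax (r = 0.86, rho = 0.86, and 0.84 without 2) and Atp6v0d2 and Itgax (r = 0.85, rho = 0.79, and 0.80 without 2). For each of these 3 the permutation p of r was 1e-05, the smallest that could be given, and the adjusted p was 9.33e-05. Krt79 had its highest r with Ear2 (r = 0.70, rho = 0.66, permutation adjusted p = 0.0014 for r) and lower values with Itgax (r = 0.52, rho = 0.64) and Atp6v0d2 (r = 0.52, rho = 0.59). The 18 other pairs had r from -0.12 to 0.34, the highest being Marco with Krt79 (rho = 0.32, permutation adjusted p = 0.325 for r).

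Taken apart, both experiments kept the sign. In the first, r of the 10 pairs was 0.53 to 0.93 and 4 of 28 pairs passed. In the second r was 0.40 to 0.87 and 0 of 28 passed, the smallest adjusted permutation p being 0.058. Without the third sham library at 5 months, the highest in Atp6v0d2, Mrc1 and Itgax, the 10 pairs of the second experiment had r of 0.59 to 0.84, and Fabp1 with Mrc1 came to 0.63, from 0.16 with that library, so it lay within the same range. No pair passed there either. All values within a library share its scaling and its makeup of cells, which such correlations include.

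**Figure D4:**
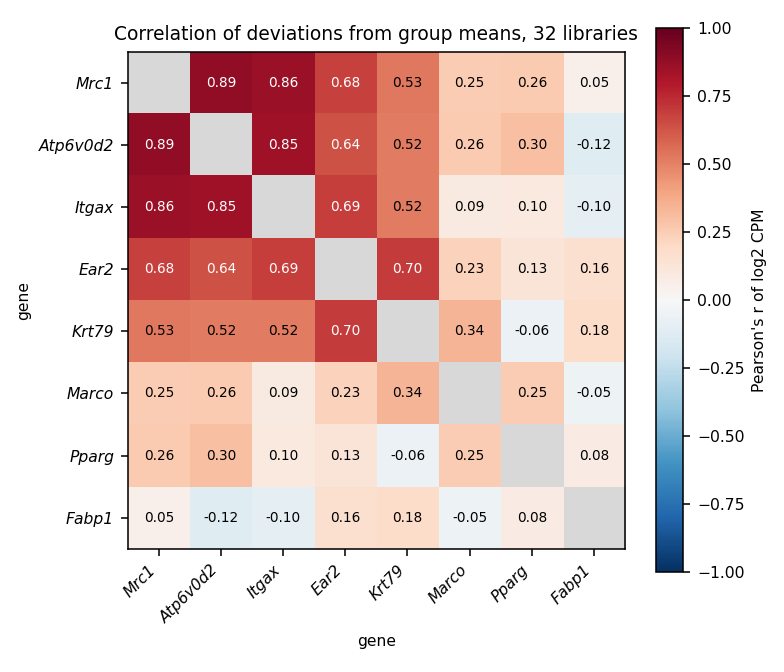
Pearson's r of log2 CPM centred within groups, over 32 libraries, for each pair of the 8 genes, with colour from blue for negative to red for positive values. Krt79, Mrc1, Atp6v0d2, Ear2 and Itgax form a block with r of 0.52 to 0.89, and the cells of Marco, Pparg and Fabp1 run from -0.12 to 0.34.

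As a description, the 3 genes most like each member were taken from 13339 genes by Pearson's r of log2 CPM over all 32 libraries, uncentred. Itgax and Atp6v0d2 had the same leading pair: Mpeg1, a pore-forming protein of macrophages (r = 0.83 and 0.84), and Ctss, a lysosomal protease (r = 0.80 and 0.81), followed by Cd44 for Itgax (0.74) and Ucp3 for Atp6v0d2 (0.78). Mrc1 was most like Gpnmb (0.75), Cd68 (0.73) and Mpeg1 (0.73), all expressed in macrophages. Ear2 was most like its relative Ear1 (0.70), with which it shares sequence, then the actin-capping gene Capg (0.67) and Ucp3 (0.66). Krt79 was most like the leukocyte receptor Lilra5 (0.79), Ms4a8a (0.76) and the surfactant gene Sftpa1 (0.75). Fabp1 was most like Itih3 (0.88), Pzp (0.87) and Alb (0.87), all secreted by liver, values that the few libraries high in Alb weigh on. Marco (Il20rb 0.68, Gpr55 0.67, Kdm6a 0.66) and Pparg (Ccdc151 0.66, Parp16 0.65, Cd8b1 0.64) had no gene above 0.70.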

How the data were processed

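Poly(A) RNA of mouse lung was measured in 32 libraries. Trizol RNA and the NEBNext Ultra 2 kit were used, per the labels' protocols. The deposited counts are unnormalized whole numbers for 35275 Ensembl genes. A second deposited table gives 35186 of these in TPM, values that matched counts over gene length scaled to 1000000 per library. The submitters' processing notes name FastQC and the builds GRCm38 and mm10, and the aligner and counter were not given in the sources used here. Gene coordinates are those of the count table.

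Each experiment was fitted apart, over its 4 groups, with edgeR 4.0.16 in R 4.3.3 (filterByExpr, TMM, robust quasi-likelihood), leaving 16361 and 16874 genes, and genes were called at a Benjamini-Hochberg adjusted p under 0.05 over all of them. CPM for description used TMM over all 32 libraries. Named genes were all 8 members, up to 3 called genes of smallest p per list and comparison, the 3 genes most like each member, and members' families. Only some of these are printed. In the signalling and PPARγ lists, called genes beyond those 3 were named after their values were seen. The members and lists were chosen with earlier results of these data known. Alternatives were RLE scaling, no count filter, the replicate block, all 32 libraries in 1 fit, DESeq2 1.42.0, leaving out libraries above 100 CPM of Alb, and leaving out each library. The sex average over air and smoke and the sets of libraries above and below 100 CPM of Alb were added after the data were seen. The edgeR procedure was run on simulated counts of the first experiment, for smoke against air in females only. The other comparisons, DESeq2 and the correlations were not part of that simulation. Depth of 13.8 to 24.5 megacounts (M) and 3 or 5 libraries per group set the precision.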

Additional observations from a re-analysis of the deposited data

Results flagged for a closer look

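In each group of 5 libraries, the gap between an extreme library and its nearest neighbour was set against the range of the group. Chance flags about 1 in 20 groups, and 3 of 32 tests (8 genes in 4 groups) were flagged. The second female smoke library stood above its group for Marco, at 36.7 CPM, and for Krt79, at 45.2 CPM, and it was also the highest for Ear2 in the series. The fifth ovariectomized library at 5 months stood above its group for Fabp1, at 15.6 CPM, and held 1099.3 CPM of Alb.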

How the results depend on the processing

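Over the alternatives run, 169 of 175 counts, of members called or of member pairs passing, stayed within 1.5 times the main count, and 6 did not. The main count of members was 0 in every comparison but smoke in males, so most of these agreements set 0 against 0. A count can also stay while its gene changes, as with all 32 libraries in 1 fit and with the replicate block, both given below. In males the count of 1 member changed by smoke was 0 without libraries above 100 CPM of Alb, 2 with DESeq2, and 0 to 2 when each library was left out. Leaving out male air library 1, the only male library above that Alb limit, gave 0. Leaving out male smoke library 4 gave 2, where Krt79 was called as well (log2 fold change 0.92, adjusted p = 0.0448). With DESeq2, whose share of all genes called was not counted, 1 member differed by sex in smoke and 2 in the average of air and smoke. Of the single values reported, 135 of 144 under other alternatives kept their direction and side of the threshold, 3 lost the call and 6 gained one, and 238 of 240 did so when a library was left out, with none reversed. The Fabp1 call in males was lost with all 32 libraries in 1 fit (-1.55, adjusted p = 0.164), where Krt79 gained one (0.82, adjusted p = 0.0398). Replicate numbers showed no clear pairing of libraries, which was not tested. In the first experiment 5 of 20 same-numbered pairs had a correlation over 0.1, beside 12 of 74 differently numbered pairs (medians 0.032 and -0.014). In the second, 3 of 20 same-numbered pairs did, beside 20 of 74 (medians -0.012 and -0.002). With the replicate block 1 member was called in males, Krt79 (1.04, adjusted p = 0.0164), Fabp1 having an adjusted p of 0.0549, and 0 in each other comparison. At 27 counts in its lowest library, Fabp1 had the fewest counts of the 8. The cause of these changes was not tested.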
